A study of Homo sapiens with 53 samples.

Results

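The peaks of the 3 methylcytosine dioxygenases TET1, TET2 and TET3 in vehicle-treated HEK293T cells were placed against the peaks of CTCF and MBD3 in the same treatment. HEK293T is a human embryonic kidney line widely used for transfection. Every row of the 3 deposited TET lists entered. Rows that overlapped or touched within a list were merged into 1 peak, which gave 5951 TET1 peaks, 1233 TET2 peaks and 14129 TET3 peaks, 21313 in all, of 706206 merged peaks in the 10 lists of the series. A TET peak that shared at least 1 bp with both a CTCF peak and an MBD3 peak was placed as "both". The other classes were "CTCF only", "MBD3 only" and "neither". Distances were measured between summits, the positions of highest enrichment in each peak.

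TET enzymes oxidise 5-methylcytosine and so open a route to its removal from DNA. CTCF is a zinc finger protein that binds a long DNA motif, halts cohesin and forms the anchors of chromatin loops and many insulators. MBD3 is a subunit of the NuRD complex, which joins nucleosome remodelling to histone deacetylation. MBD3 carries a methyl-CpG-binding domain that in mammals binds methylated DNA poorly.

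Chromatin immunoprecipitation with sequencing was carried out after 72 h of treatment with the solvent DMSO or with the compound BPK-25, and only the DMSO lists are described here. TET1, TET2 and TET3 were pulled down through a Flag tag, each from its own tagged HEK293T derivative under DMSO, with 3, 2 and 3 immunoprecipitates. CTCF and MBD3 were pulled down with antibodies to the proteins from parental HEK293T cells under DMSO, with 3 immunoprecipitates each. Each overlap therefore joins peaks from different cell lines. The samples hold no Flag immunoprecipitate from untagged cells. Signal common to the Flag pull-downs therefore cannot be told apart from TET binding. The labels call the derivatives edited cells and give neither the way the tag was introduced nor whether a line is 1 clone. The labels number the TET2 immunoprecipitates 1 and 3, while the name of the TET2 list refers to replicates 1, 2 and 3.

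The depositors made 1 list per protein and treatment, taken here as called on pooled replicates, so no peak has a replicate spread and no test between lists was possible. The intervals below are 95% Clopper-Pearson intervals over peaks and cover counting error only. The lists differ in size and sensitivity. The CTCF list held 99587 merged peaks over 42.0 Mb and the MBD3 list 82358 over 35.1 Mb, against 1.86 Mb for TET1, 0.327 Mb for TET2 and 4.70 Mb for TET3. Median fold enrichment over the local background was 4.04 for TET1, 4.92 for TET2 and 4.38 for TET3, against 11.3 for CTCF and 3.65 for MBD3. The lowest background in each list, solved from its fold and p-value, was 1.85, 1.25 and 1.70 fragments for TET1, TET2 and TET3, and 3.68 and 3.21 fragments for CTCF and MBD3. The TET lists thus stand on shallower pileups, and the part this plays in their sizes was not tested. The lists hold no expression values, so the cell line was not checked against marker genes.

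Peaks at both CTCF and MBD3 were the most numerous class for each TET protein. Of the TET1 peaks, 3629 lay at both proteins, a share of 61.0% (59.7 to 62.2). Of the TET2 peaks, 783 did so, 63.5% (60.7 to 66.2). Of the TET3 peaks, 7563 did so, 53.5% (52.7 to 54.4). For comparison, 36.9% of all CTCF peaks overlapped an MBD3 peak and 43.3% of all MBD3 peaks overlapped a CTCF peak.

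MBD3 without CTCF was the next class. It held 1324 TET1 peaks, 22.2% (21.2 to 23.3), and 262 TET2 peaks, 21.2% (18.996 to 23.6). TET3 had the largest share of this class, with 4109 peaks or 29.1% (28.3 to 29.8), and its interval lay above those of TET1 and TET2. CTCF without MBD3 was the smallest class of each list. It held 393 TET1 peaks, 6.60% (5.99 to 7.26), 44 TET2 peaks, 3.57% (2.60 to 4.76), and 639 TET3 peaks, 4.52% (4.19 to 4.88). Neither protein was found at 605 TET1 peaks, 10.2% (9.41 to 10.96), 144 TET2 peaks, 11.7% (9.94 to 13.6), and 1818 TET3 peaks, 12.9% (12.3 to 13.4).

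**Figure D1:**
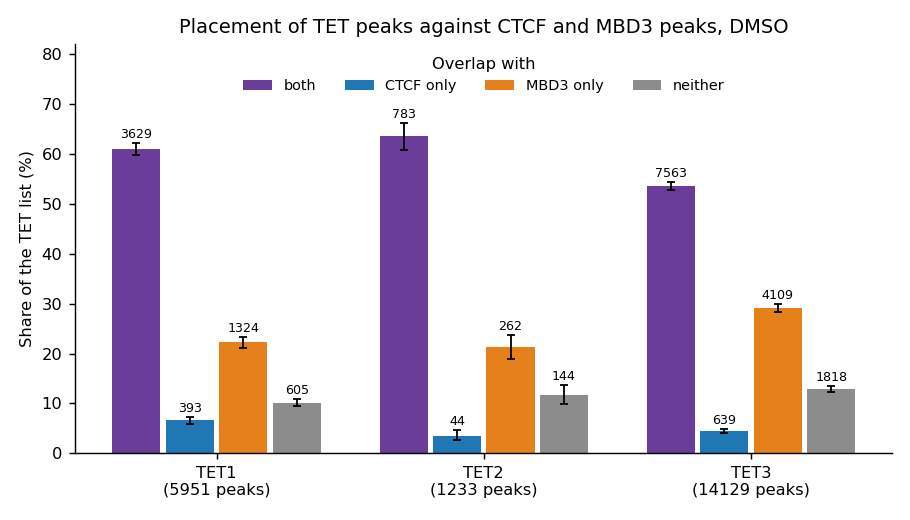
Share of each TET list (y axis, %) that overlapped both CTCF and MBD3, CTCF only, MBD3 only or neither in DMSO-treated cells; bars start at 0, error bars are 95% Clopper-Pearson intervals over peaks and the number of peaks stands above each bar. Both is the tallest bar in each list (61.0%, 63.5% and 53.5%) and CTCF only the shortest (6.60%, 3.57% and 4.52%).

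This order depended on how many CTCF and MBD3 peaks were admitted. With the 50000 strongest peaks of each, MBD3 only was the largest class, at 43.9% of TET1, 44.0% of TET2 and 49.9% of TET3, and both held 34.9%, 37.0% and 26.6%. When overlap was replaced by summits within 200 bp, neither was the largest class of TET3, at 36.7% against 25.2% for both, while both was still the largest of TET1 and TET2. The CTCF only share moved over a wide range across all settings, from 2.92 to 15.2% for TET1, 1.07 to 11.7% for TET2 and 0.568 to 11.7% for TET3.

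The overlaps with the 2 proteins went together. Among TET1 peaks with CTCF, 90.2% (89.3 to 91.1) also overlapped MBD3, against 68.6% (66.5 to 70.7) of TET1 peaks without CTCF. The TET2 shares were 94.7% (92.9 to 96.1) with CTCF and 64.5% (59.7 to 69.2) without. The TET3 shares were 92.2% (91.6 to 92.8) with CTCF and 69.3% (68.1 to 70.5) without. Seen from the other side, CTCF lay at 73.3% (72.0 to 74.5) of TET1 peaks with MBD3 and at 39.4% (36.3 to 42.5) of those without. The corresponding shares were 74.9% (72.2 to 77.5) and 23.4% (17.6 to 30.1) for TET2, and 64.8% (63.9 to 65.7) and 26.01% (24.3 to 27.8) for TET3. With all peaks admitted and 1 bp of overlap, MBD3 therefore lay at most TET peaks whether or not CTCF was there. CTCF lay at a minority of the TET peaks that lacked MBD3. The statement on MBD3 depended on the setting. With CTCF and MBD3 −log10 q of 10 or more, MBD3 only held 19.8, 18.3 and 24.7% of TET1, TET2 and TET3, and neither held more, 21.6, 22.8 and 28.2%. With summits within 200 bp, MBD3 only held 23.7, 25.4 and 26.4%, and neither 26.8, 26.4 and 36.7%.

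The classes changed along each list when its peaks were ranked by −log10 q, the caller's significance, and divided into 10 equal groups. For TET3, both took 36.7% (34.1 to 39.2) of the weakest decile and 67.2% (64.7 to 69.7) of the strongest, with each decile above the one before it. Neither took 26.5% (24.3 to 28.9) of the weakest TET3 decile and 4.67% (3.63 to 5.91) of the strongest. MBD3 only stayed between 27.5% and 30.2% in all 10 TET3 deciles.

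TET1 followed a like course, with small dips, up to its ninth decile and then turned. Both took 42.3% (38.3 to 46.4) of the weakest TET1 decile, 75.3% (71.6 to 78.7) of the ninth and 63.9% (59.9 to 67.7) of the strongest. In that strongest decile MBD3 only took 26.4% (22.9 to 30.1), against 14.8% (12.0 to 17.9) in the ninth. TET2 turned earlier. Both took 74.8% (66.2 to 82.2) of its sixth decile and 43.9% (35.0 to 53.1) of its strongest, where MBD3 only took 31.7% (23.6 to 40.7) and neither 23.6% (16.4 to 32.1). CTCF only was scarce at the top of every list, where the strongest decile held 8 such peaks among 595 for TET1, 1 among 123 for TET2 and 9 among 1412 for TET3.

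**Figure D2:**
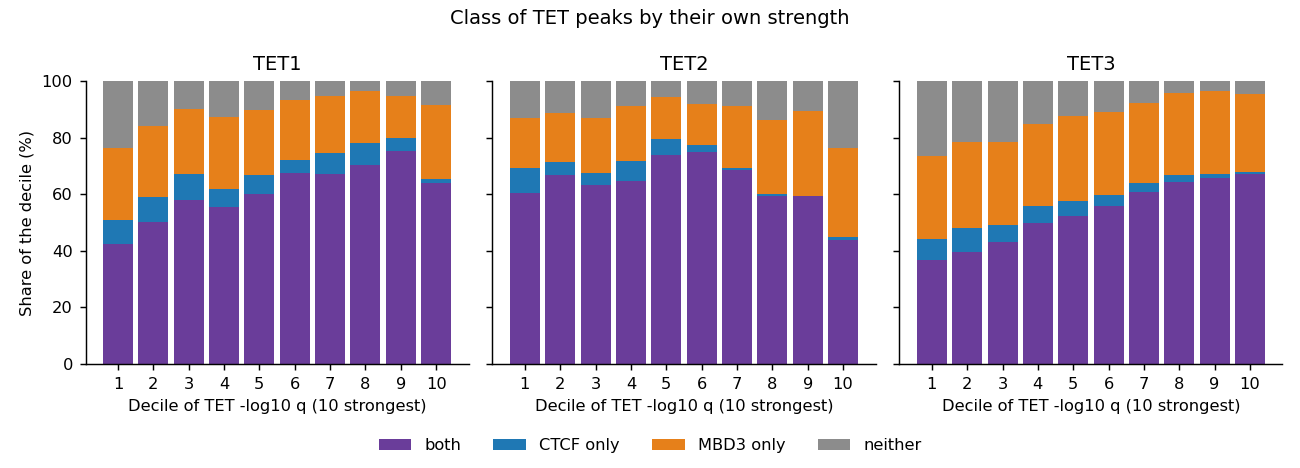
Stacked shares (y axis, %) of the 4 overlap classes in each decile of TET1, TET2 and TET3 peaks ranked by −log10 q (x axis, 10 is strongest). For TET3 the share at both climbs from 36.7% to 67.2%, for TET1 it tops out at 75.3% in the ninth decile, and for TET2 it is 43.9% in the strongest decile.

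A set of peaks in regions of very high local background stood among the neither peaks. Local background at or above 20 times the genome background was found at 43 of the 144 TET2 neither peaks (29.9%), at 24 of the TET1 neither peaks (3.97%) and at 23 of the TET3 neither peaks (1.27%). Only 3 TET1, 5 TET2 and 10 TET3 peaks at both were of this kind. Without such peaks the neither share of TET2 was 8.58%, and the part of local background in its strongest decile was not tested.

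TET peaks at both proteins were wider than those at neither. Median widths were 285, 228 and 306 bp at both for TET1, TET2 and TET3, against 223, 222 and 227 bp at neither. Median fold enrichment differed little between classes for TET1, at 4.09 for both, 3.94 for CTCF only, 4.05 for MBD3 only and 3.86 for neither. TET3 peaks had a median fold of 4.60 at both, 3.84 at CTCF only, 4.32 at MBD3 only and 3.84 at neither. The highest median of TET2 was at MBD3 only, 5.57, against 4.95 at both, 4.52 at CTCF only and 4.44 at neither. Local background moved with class for TET1, with a median of 1.87 times the genome background at both, 1.40 at CTCF only, 1.58 at MBD3 only and 1.25 at neither. For TET2 it was 2.08 at both, 1.40 at CTCF only, 1.89 at MBD3 only and 1.70 at neither. For TET3 it was 1.43 in each of the 3 classes with a partner and 1.25 at neither. Its part in the placement was not tested.

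Distances were first taken from TET summits to the summits of the peaks they overlapped. Overlap bounds these distances by the widths of the peaks, whose list medians were 345 bp for CTCF and 290 bp for MBD3. The median distance to the overlapped CTCF summit was 84 bp for TET1, 84 bp for TET2 and 134 bp for TET3. Within 50 bp lay 37.2% (35.7 to 38.8) of the TET1 summits, 37.0% (33.7 to 40.4) of the TET2 summits and 28.1% (27.1 to 29.0) of the TET3 summits. To the overlapped MBD3 summit, the medians were 81 bp for TET1, 61 bp for TET2 and 127 bp for TET3. Within 50 bp of it lay 38.1% (36.7 to 39.4) of TET1, 44.8% (41.7 to 47.9) of TET2 and 29.7% (28.8 to 30.5) of TET3 summits. Over the full lists TET3 had the longest medians on either protein, and its peaks were also the widest, with a median of 277 bp against 267 bp for TET1 and 229 bp for TET2. Among the 1233 strongest peaks of each list, the median of TET3 to MBD3 was 60 bp, against 61 bp for TET2 and 44 bp for TET1, so its place in the order to MBD3 did not hold there.

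These distances run to the strongest summit of a merged peak. Where the nearest of all deposited summits was taken, a choice made after the data were seen, the medians were 63, 58 and 86 bp to CTCF and 53, 40 and 64 bp to MBD3 for TET1, TET2 and TET3.

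Counted over all TET peaks, overlapping or not, summits piled up in the first 50 bp. For TET1, 24.9% (23.8 to 25.99) of summits lay less than 50 bp from the nearest CTCF summit and 31.2% (30.0 to 32.4) less than 50 bp from the nearest MBD3 summit. Per 100 bp of distance this was 2960 TET1 summits in the first 50 bp from CTCF, against 29.4 between 1000 and 2000 bp and 10.4 between 2000 and 5000 bp. For MBD3 it was 3710 TET1 summits, against 18.3 and 5.40 in the same bands. TET2 had 24.5% (22.1 to 27.0) of its summits in the first 50 bp from CTCF and 37.8% (35.1 to 40.6) in the first 50 bp from MBD3. TET3 had 16.1% (15.5 to 16.7) and 24.1% (23.4 to 24.8). All 3 TET proteins had a larger share in the first bin around MBD3 than around CTCF.

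**Figure D3:**
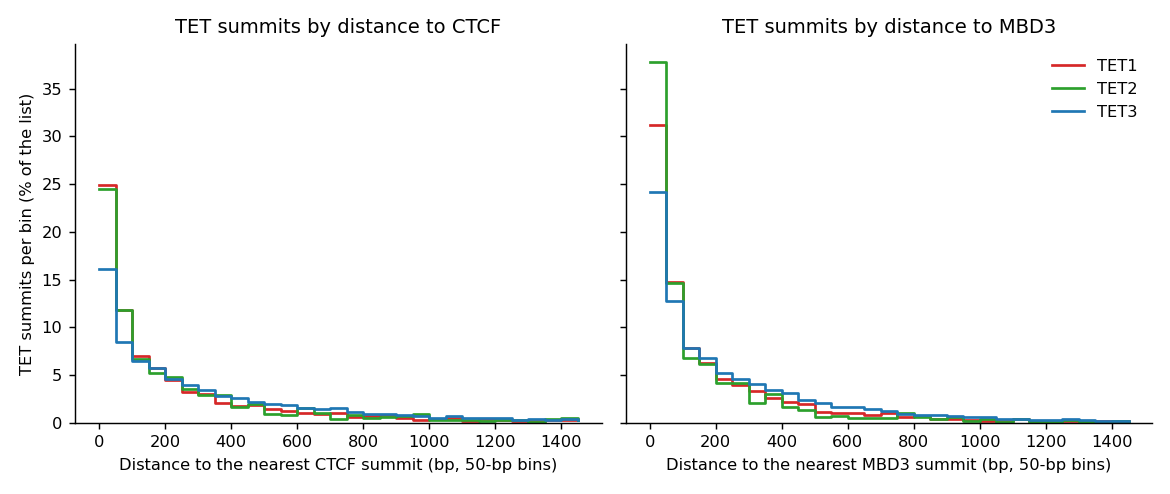
Share of all TET summits (y axis, % of the list per 50-bp bin) by distance from the nearest CTCF summit (left) and the nearest MBD3 summit (right), in bp, for TET1, TET2 and TET3 in DMSO-treated cells, drawn out to 1500 bp. The first bin is the highest for each protein, at 24.9%, 24.5% and 16.1% around CTCF and 31.2%, 37.8% and 24.1% around MBD3.

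The class with CTCF alone had the shorter distances to CTCF. Its median distance was 51 bp for TET1, 43 bp for TET2 and 61 bp for TET3, against 91, 89 and 140 bp to the CTCF summit at peaks with both. Peaks were also narrower in this class. TET peaks had median widths of 235, 199.5 and 224 bp, against 285, 228 and 306 bp at both. The overlapped CTCF peaks had 511, 521 and 516 bp, against 607, 585 and 599 bp. The part of width in these distances was not tested. At MBD3 only peaks, the distance to the MBD3 summit was 78 bp for TET1, 53 bp for TET2 and 95 bp for TET3, against 83, 63 and 147 bp at peaks with both. The missing partner was usually kilobases away. From MBD3 only peaks, the nearest CTCF summit lay at a median of 4066.5 bp for TET1, 3276 bp for TET2 and 2725 bp for TET3. From CTCF only peaks, the nearest MBD3 summit lay at 7931, 9039.5 and 5586 bp. TET1, TET2 and TET3 peaks at neither lay 5004, 9483 and 3868.5 bp from CTCF and 2791, 4121 and 1933.5 bp from MBD3, so MBD3 was the nearer of the 2 in each list.

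At peaks with both proteins, the CTCF and MBD3 summits were themselves close, and the TET summit favoured neither by much. The CTCF to MBD3 distance had a median of 45 bp at TET1 peaks, 40 bp at TET2 peaks and 62 bp at TET3 peaks. The same distance at overlapping CTCF and MBD3 peaks without TET is not given here, so these medians are not shown to be particular to TET sites. The TET1 summit was nearer MBD3 at 52.2% (50.5 to 53.8) of its peaks and nearer CTCF at 46.7% (45.0 to 48.3). The TET2 summit was nearer MBD3 at 54.5% (51.0 to 58.1) and nearer CTCF at 44.2% (40.7 to 47.7). For TET3 the shares were 49.4% (48.3 to 50.5) and 49.9% (48.8 to 51.1), whose intervals overlap.

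Where the CTCF and MBD3 summits were more than 200 bp apart, the order differed between the TET proteins. TET2 was nearer MBD3 at 60.5% (53.4 to 67.3) of 200 such peaks, TET1 at 50.1% (46.8 to 53.3) of 941 and TET3 at 42.5% (40.5 to 44.5) of 2389. TET3 was nearer CTCF at 57.4% (55.4 to 59.4) of them. The TET summit lay between the other 2 at 58.0% (50.8 to 64.9), 53.7% (50.4 to 56.9) and 48.6% (46.6 to 50.7) of these peaks for TET2, TET1 and TET3. At peaks with both, the TET summit was not always near either of the other summits. Over 200 bp from both summits lay 16.1% (15.0 to 17.4) of TET1, 14.3% (11.9 to 17.0) of TET2 and 25.7% (24.7 to 26.7) of TET3 summits.

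The CTCF peaks under the classes differed in strength. At TET1 peaks with both, the overlapped CTCF peak had a median fold of 14.0 and stood at the median percentile 59.9 of the CTCF list by −log10 q. At TET1 peaks with CTCF only, it had a median fold of 52.8 and stood at percentile 83.0. TET2 gave folds of 14.0 and 55.5, and TET3 gave 9.68 and 47.0. CTCF peaks below the 50th percentile made up 40.9% (39.3 to 42.5) of the CTCF peaks at TET1 peaks with both, 40.4% (36.9 to 43.9) at TET2 and 48.9% (47.8 to 50.03) at TET3, against 12.0% (8.92 to 15.6), 20.5% (9.80 to 35.3) and 21.6% (18.5 to 24.99) at CTCF only peaks. The strongest CTCF decile made up 29.5, 29.4 and 21.2% of the CTCF peaks at both for TET1, TET2 and TET3. At CTCF only peaks it made up 22.9, 27.3 and 19.4%. TET peaks at CTCF alone thus sat mostly on strong CTCF sites. Those that also had MBD3 sat on strong and weak CTCF sites. Of all 36778 CTCF peaks with MBD3, with or without TET, 8344 stood in the strongest decile. CTCF peaks without TET1 had a median fold of 12.1 with MBD3 and 11.0 without. Among CTCF peaks with MBD3, the median fold was 13.6 with TET1, against that 12.1 without it. It was 13.5 with TET2 and 12.2 without, but 9.17 with TET3 and 13.5 without.

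For MBD3 the stronger peaks lay with CTCF. The overlapped MBD3 peak had a median fold of 6.41 at TET1, 6.60 at TET2 and 6.69 at TET3 peaks with both, against 4.69, 4.62 and 4.72 at MBD3 only peaks. MBD3 peaks without TET1 had a like gap, with a median fold of 4.86 where they overlapped CTCF and 3.23 where they did not. These MBD3 peaks were also wide, with medians of 664, 641 and 759 bp at both and 464.5, 396.5 and 483 bp at MBD3 only. The median of all MBD3 peaks was 290 bp, and the part of width in the overlap was not tested.

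The distance between TET and CTCF summits was shortest at the strongest CTCF sites. At TET1 peaks with both, it had a median of 47 bp in the strongest CTCF decile, against 112 bp in the ninth, 136 bp in the eighth and 108.5 bp in the weakest. TET2 gave 54 bp in the strongest decile and 194 bp in the ninth, and TET3 gave 81 and 172 bp. In the strongest CTCF decile 51.2% (48.2 to 54.2) of TET1 summits, 47.8% (41.2 to 54.5) of TET2 summits and 41.1% (38.7 to 43.5) of TET3 summits were within 50 bp. The CTCF peaks there were of similar width, with medians of 757.5, 732.5 and 830 bp against 744, 816 and 803 bp in the ninth decile. At the same peaks the MBD3 summit was similarly close, at medians of 46, 43.5 and 74 bp. At CTCF only peaks, too, TET1 and TET3 had their shortest median in the strongest CTCF decile, 35 bp over 90 TET1 peaks and 35 bp over 124 TET3 peaks. The 12 TET2 peaks there had a median of 24.5 bp.

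Around MBD3 the TET proteins differed at the strongest sites. At TET3 peaks with both, the median distance to the MBD3 summit was 224 bp in the strongest MBD3 decile and 72 bp in the sixth. The overlapped MBD3 peaks had median widths of 1078 and 399.5 bp in these deciles, and the part of width was not tested. At MBD3 only peaks in the strongest MBD3 decile, it was 244.5 bp for TET1, 86 bp for TET2 and 404 bp for TET3. Those MBD3 peaks had median widths of 908.5, 979 and 1089 bp. TET1 peaks with both were at 92.5 bp from MBD3 in the strongest MBD3 decile, 86 bp in the ninth and 70 bp in the sixth. TET2 peaks with both were at 58 bp in the strongest, 67 bp in the ninth, 62 bp in the eighth and 81 bp in the seventh. In the sixth they were at 36 bp, over 29 peaks. Within 50 bp lay 47.0% (41.4 to 52.5) of these TET2 summits in the strongest decile and 40.0% (33.5 to 46.7) in the ninth. In the sixth it was 55.2% (35.7 to 73.6). The median was thus longer in the strongest decile than in the sixth for TET1, TET2 and TET3.

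**Figure D4:**
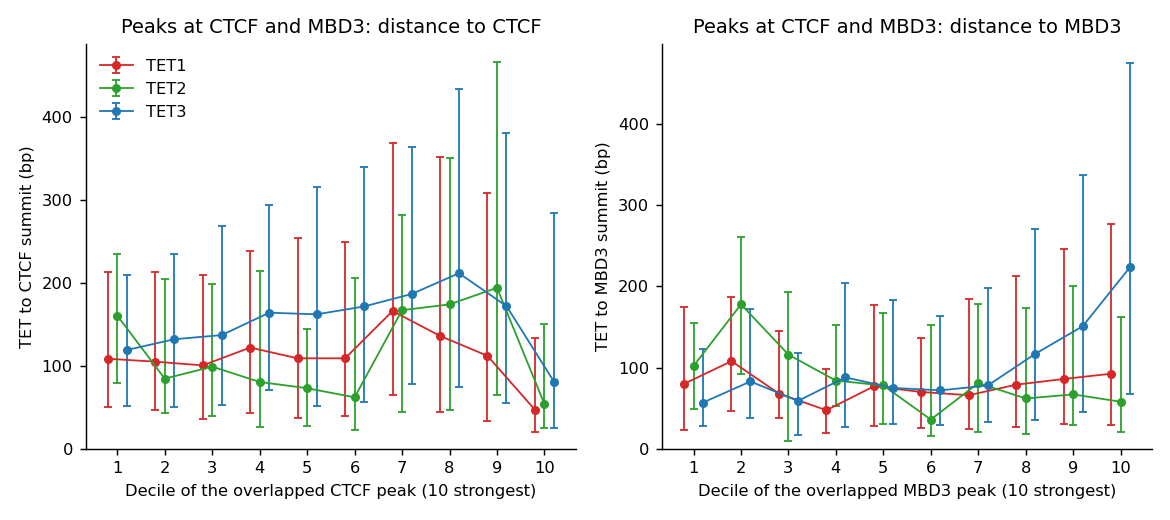
Distance (y axis, bp) from the TET summit to the CTCF summit (left) and to the MBD3 summit (right) at TET peaks with both, by the decile of the overlapped peak in its own list (x axis, 10 is strongest); points are medians and bars quartiles over peaks. Around CTCF the medians are 47, 54 and 81 bp in the strongest decile for TET1, TET2 and TET3, and around MBD3 TET3 reaches 224 bp there, while TET2 has only 4 peaks in each of the 2 weakest MBD3 deciles.

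Asked from the side of CTCF, sites with MBD3 held TET peaks far more often than sites without it. TET1 lay at 3.99% of all CTCF peaks, at 9.83% (9.53 to 10.1) of the 36778 with MBD3 and at 0.568% (0.511 to 0.630) of the 62809 without, a ratio of 17.3. TET2 lay at 0.826% of all CTCF peaks, at 2.13% (1.99 to 2.29) with MBD3 and at 0.0605% (0.0428 to 0.0830) without, a ratio of 35.3. TET3 lay at 7.99% of all CTCF peaks, at 20.1% (19.7 to 20.6) with MBD3 and at 0.871% (0.7997 to 0.947) without, a ratio of 23.1. The size of these ratios varied widely with the settings, from 7.03 to 49.5 for TET1, from 11.1 to 99.3 for TET2 and from 5.67 to 245 for TET3. All stayed above 1.

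The excess with MBD3 was present at every strength of CTCF site. In each of the 10 CTCF deciles the share was higher with MBD3 for TET1, TET2 and TET3, with intervals that did not overlap. TET2 had no peak at all in 3 of the deciles without MBD3. The ratio was smallest in the strongest decile. There TET1 lay at 12.6% (11.9 to 13.4) of CTCF peaks with MBD3 and 5.02% (4.01 to 6.20) without. TET2 lay at 2.74% (2.40 to 3.12) with and 0.743% (0.385 to 1.30) without, and TET3 at 18.3% (17.5 to 19.2) with and 5.89% (4.79 to 7.15) without. CTCF sites that lacked MBD3 held TET1 at 0.0807% (0.0296 to 0.175) in the fifth decile, so their TET peaks were concentrated at the top of the CTCF list.

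Site width and local background moved with TET. CTCF peaks with MBD3 had a median width of 603 bp where they held TET1 and 484 bp where they did not, and a local background of 2.27 and 1.72 times the genome background. The contrast was also seen within width classes. Among CTCF peaks over 500 and up to 1000 bp wide, TET1 lay at 11.9% (11.4 to 12.4) with MBD3 and 1.59% (1.35 to 1.85) without. TET2 lay at 2.51% (2.26 to 2.78) and 0.202% (0.124 to 0.312), and TET3 at 21.8% (21.2 to 22.5) and 2.35% (2.06 to 2.66). Local background was not held fixed, and its part was not tested.

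From the side of MBD3, the contrast by CTCF was smaller. TET1 lay at 5.94% of all MBD3 peaks, at 10.5% (10.2 to 10.8) of the 35648 with CTCF and at 2.46% (2.32 to 2.60) of the 46710 without, a ratio of 4.28. TET2 lay at 1.26% of all MBD3 peaks, at 2.29% (2.14 to 2.45) with CTCF and at 0.475% (0.415 to 0.542) without, a ratio of 4.82. TET3 lay at 13.5% of all MBD3 peaks, at 21.9% (21.5 to 22.4) with CTCF and at 7.08% (6.84 to 7.31) without, a ratio of 3.10. With CTCF and MBD3 peaks of −log10 q of 10 or more these ratios were 1.52, 1.72 and 1.14 for TET1, TET2 and TET3.

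At MBD3 peaks of like strength the ratio varied with that strength. It was highest among weak MBD3 peaks, reaching 7.22 for TET1 and 8.39 for TET2. The TET2 value rests on few peaks, 5 of 1365 with CTCF and 3 of 6871 without, and their intervals overlapped. In the strongest decile the intervals overlapped for TET1, TET2 and TET3. The share was higher with CTCF, with intervals apart, in 8 of 10 MBD3 deciles for TET1, 3 for TET2 and 7 for TET3. In the strongest MBD3 decile TET1 lay at 18.2% (17.3 to 19.1) of peaks with CTCF and 19.5% (16.1 to 23.3) without. TET2 lay at 4.28% (3.84 to 4.76) with and 4.15% (2.55 to 6.34) without. TET3 lay at 37.7% (36.6 to 38.8) with and 40.9% (36.4 to 45.4) without. The share with TET was higher at stronger MBD3 peaks, with or without CTCF. Without CTCF, TET3 lay at 1.49% (1.22 to 1.80) of the weakest MBD3 decile, against 40.9% of the strongest, and TET1 at 0.357% (0.231 to 0.527), against 19.5%. Wider MBD3 peaks had more TET as well, and among MBD3 peaks over 1000 bp TET3 lay at 45.9% (44.6 to 47.2) with CTCF and 33.4% (28.9 to 38.2) without.

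**Figure D5:**
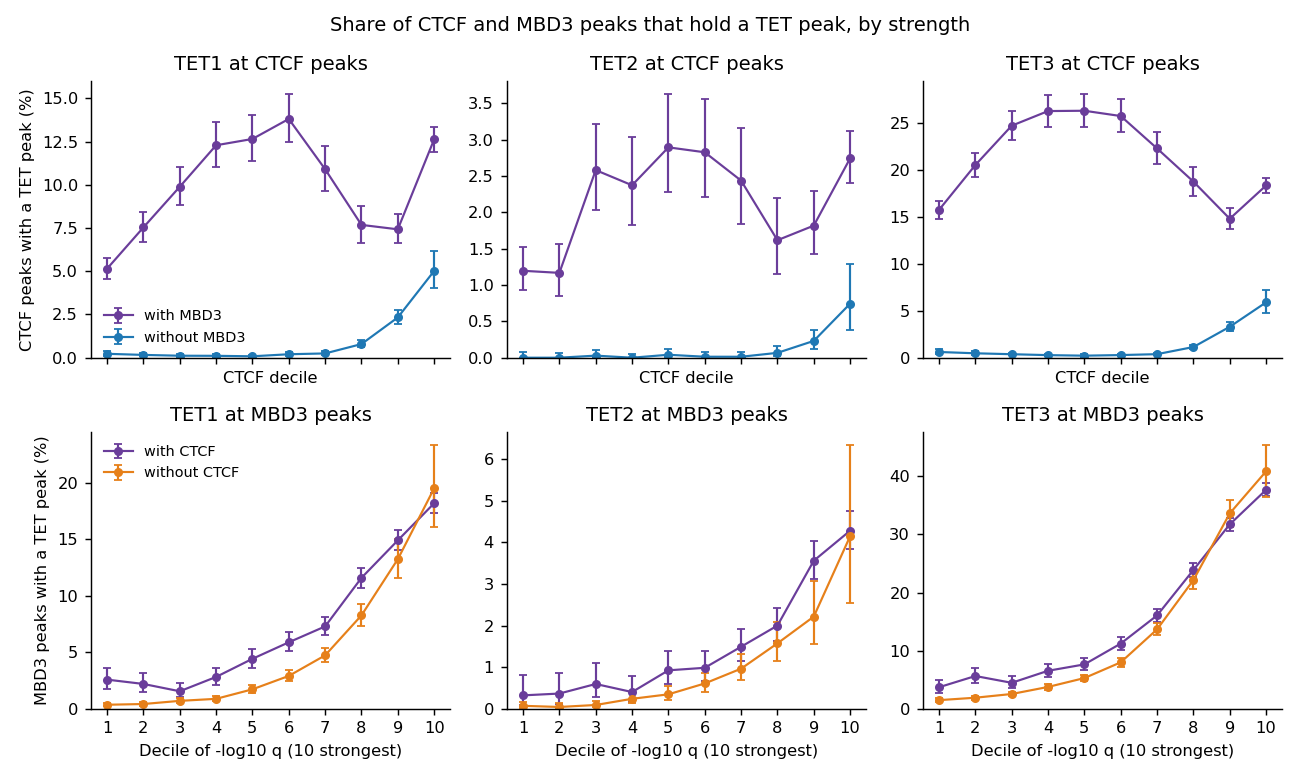
Share of CTCF peaks (top row) and of MBD3 peaks (bottom row) that held a TET1, TET2 or TET3 peak (y axis, %), by decile of the peak's own −log10 q (x axis, 10 is strongest), split by overlap with the other protein; bars are 95% Clopper-Pearson intervals. At CTCF peaks the line with MBD3 is above the line without it in all 10 deciles, while at MBD3 peaks the lines meet in the strongest decile (18.2% and 19.5% for TET1, 37.7% and 40.9% for TET3).

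The strongest single regions were the 3 peaks of highest −log10 q in each class and list, on chromosomes 1 to 22 and X and outside high local background. The 36 entries fell at 21 separate loci, and 17 of these had a peak in all 3 TET lists. Without a Flag pull-down from untagged cells, TET binding at such shared loci cannot be told apart from signal common to the pull-downs. Positions are on hg19 and the folds are the authors' own. Gene annotation on this build was not used here.

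Of the regions named, those of highest −log10 q in each list had MBD3 and no CTCF. The TET1 peak at chr17:1372407-1372907 had a fold of 39.6, and the peak there had 50.4 in TET2 and 64.3 in TET3. The MBD3 summit was 19, 16 and 25 bp away, at an MBD3 peak of fold 4.57 and percentile 65.9, and the nearest CTCF summit was 3964 bp from the TET1 summit. The TET1 peak at chrX:1324244-1325456 had a fold of 29.1, with 36.4 in TET2 and 50.8 in TET3, and its MBD3 summit lay 24 bp away at fold 3.78. Both sites paired very high TET enrichment with middling MBD3 enrichment. A site at chr18:11688992-11689305 had a TET2 fold of 41.8, with 28.2 in TET1 and 40.8 in TET3, and a strong MBD3 peak of fold 11.6 with its summit 13 bp from the TET2 summit.

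Some of the named loci changed class between lists. At chr16:77822072-77822463 the TET1 peak, with a fold of 25.2, was MBD3 only and ended 21 bp short of a CTCF peak. The wider TET3 peak there, with a fold of 22.2, reached that CTCF peak, which had a fold of 2.99 and stood at percentile 2.36, and was placed as both. Its summit was 485 bp from the CTCF summit.

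Among peaks with both, the leading TET1 region was chr13:74614302-74614705. Its fold was 21.6 in TET1, 12.9 in TET2 and 11.5 in TET3. The CTCF summit lay 51 bp from the TET1 summit, at a fold of 81.2, and the MBD3 summit 29 bp away at a fold of 4.48. The next TET1 region, chr7:2272517-2273034, had a TET1 fold of 21.3 at a weak CTCF peak of fold 2.73 and a strong MBD3 peak of fold 9.43. The leading TET2 region, chr8:26724673-26724998, had a fold of 29.8 in TET2, 17.6 in TET1 and 24.1 in TET3, with CTCF 17 bp and MBD3 1161 bp from the TET2 summit. The second TET3 region, chr11:3181406-3182156, had a fold of 31.4, with MBD3 3 bp away and a CTCF peak of fold 3.10 at 448 bp, and the TET2 peak there, with a fold of 13.6, was MBD3 only. The top of this class thus mixed strong CTCF sites with very weak ones.

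The leading CTCF only region of TET1 and TET2, chr20:58090631-58090969, had folds of 15.9 in TET1, 13.6 in TET2 and 7.51 in TET3. Its CTCF peak had a fold of 91.4, with the summit 82 bp from the TET1 summit, and the nearest MBD3 summit lay 9960 bp away. The other CTCF only regions named for TET1 and TET2 were weaker in their lists. In TET3 the leading region of this class was chr6:27763486-27763928, with a fold of 10.9. The third TET2 region, chr12:77404785-77405043, had a fold of 6.62 with no peak in TET1 or TET3, although CTCF had a fold of 141 at 19 bp. The third TET3 region of this class, chr15:65587948-65589107, had a fold of 8.48 at a CTCF peak of fold 3.42, and the TET1 and TET2 peaks there were placed as neither. The 3 strongest neither regions were the same loci in all 3 lists. At chr17:18647148-18647516 the folds were 15.2 in TET1, 16.7 in TET2 and 20.6 in TET3, and the nearest CTCF and MBD3 summits lay 10235 and 21902 bp from the TET1 summit. At chr17:15522941-15523254 they were 16.6, 12.3 and 20.4, and at chr22:51198469-51198841 they were 13.2, 21.8 and 18.6.

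Sharing between TET proteins differed by class. In the TET1 and TET2 lists, peaks with MBD3 were shared with TET3 more often than peaks without it. TET1 peaks overlapped a TET3 peak at 66.5% (64.9 to 68.0) of sites with both and 64.6% (61.9 to 67.2) of MBD3 only sites, against 24.2% (20.0 to 28.7) of CTCF only and 27.1% (23.6 to 30.8) of neither sites. TET2 peaks overlapped TET3 at 83.4% (80.6 to 85.9) of both, 88.9% (84.5 to 92.5) of MBD3 only, 36.4% (22.4 to 52.2) of CTCF only and 47.2% (38.9 to 55.7) of neither sites. TET3 peaks overlapped TET1 at 32.4% (31.4 to 33.5) of both, 20.0% (18.8 to 21.3) of MBD3 only, 14.1% (11.5 to 17.0) of CTCF only and 8.58% (7.33 to 9.96) of neither sites. Most TET3 peaks of every class overlapped no peak of TET1 or TET2. Their share was 66.2% at both, 79.1% at MBD3 only, 84.7% at CTCF only and 90.6% at neither. CTCF only and neither sites had lower median TET folds in each list. By −log10 q the order differed for TET2, with medians of 6.79 at neither, 5.27 at both, 7.33 at MBD3 only and 3.28 at CTCF only. The part of peak strength in the sharing was not tested.

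Merging the 3 lists gave 16720 TET sites, of which 790 were in all 3 lists. Of those 790, 73.5% (70.3 to 76.6) lay at both, 19.9% (17.1 to 22.8) at MBD3 only, 0.759% (0.279 to 1.65) at CTCF only and 5.82% (4.29 to 7.69) at neither. Sites in the TET1 list alone numbered 2360, with 49.7% (47.7 to 51.7) at both and 12.4% (11.1 to 13.8) at CTCF only. Sites in the TET3 list alone numbered 10446, with 48.0% (47.0 to 48.9) at both, 31.1% (30.2 to 32.0) at MBD3 only and 5.17% (4.75 to 5.61) at CTCF only. CTCF without MBD3 was thus most frequent among sites of the TET1 list alone and of the TET2 list alone, where it held 11.6% (7.51 to 16.9) of 198 sites.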

How the data were processed

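Chromatin immunoprecipitates of HEK293T cells and tagged derivatives were analysed from the authors' deposited peak lists on hg19. The submitters' processing notes name FastQC 0.11.7, Bowtie2 2.3.4, SAMtools 1.9, MACS2 2.1.2 and bedtools 2.25.0. Their settings were not given in the sources used here. Each deposited list gives, per summit, a fold enrichment (a ratio over local background), −log10 p and −log10 q, all the authors' values from the caller, and the summit's offset from the start. The lowest deposited −log10 q was close to 1.30 in every list. Read depth is not in the lists and its totals are unknown. Pileup and local background were solved from fold and −log10 p under the caller's Poisson model. All solved pileups under 200 came within 0.02 of a whole number.

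Overlapping or touching rows were merged, and a peak kept the values and summit of its row of highest −log10 q. Where a TET peak overlapped several peaks of a list, the nearest summit was taken. Overlap needed 1 bp. Percentiles and deciles ranked all peaks of a list by −log10 q. The regions named are, per TET list and class, the 3 peaks with the greatest −log10 q that lay on chromosomes 1 to 22 or X with local background below 20 times the genome background, the lowest in the list. The members, classes and named-region rule were chosen with earlier results of these data known. No test was made, since lists are taken as pooled over replicates. Tools were Python 3.11.15, numpy 2.4.6, pandas 2.3.3, scipy 1.17.1 and matplotlib 3.10.9. Placement, distances and the solver were checked on simulated data. In all, 9 planned and 2 added alternatives were run. The BPK-25 lists were counted but not used otherwise, and no sequence is printed because no genome of this build was used.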

Additional observations from a re-analysis of the deposited data

How the results depend on the processing

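No paired analysis was possible because the lists pool the replicates, and for the same reason no replicate could be left out. Of 33 placements of a TET list, the reported ones included, 29 had both as the largest class; in the other 4, which the report gives, another class was the largest. No ratio of site shares over all admitted peaks fell below 1 in any setting. Within single MBD3 deciles the lowest ratio with over without CTCF was 0.933 for TET1 and 0.922 for TET3. Values are in the order TET1, TET2, TET3 unless named. With 50% of the TET peak covered, both was 51.5, 56.2 and 40.7%, MBD3 only 24.7, 24.7 and 33.5%, neither 15.4, 14.4 and 19.9%, and CTCF only 8.45% for TET1 and 5.99% for TET3; medians were 71, 72 and 107 bp to CTCF, and 74 bp (TET1) and 114 bp (TET3) to MBD3. With summits within 200 bp, both was 36.4, 40.1 and 25.2%, CTCF only 13.2, 8.19 and 11.7%, MBD3 only 23.7, 25.4 and 26.4%, neither 26.8, 26.4 and 36.7%, with 49, 49 and 61 bp to CTCF and 47, 38 and 55 bp to MBD3. With TET −log10 q of 5 or more, both was 70.2% for TET1 and 64.7% for TET3, CTCF only 4.52, 1.07 and 1.89%, MBD3 only 19.5% for TET1 and 24.0% for TET2, neither 5.74% for TET1 and 4.74% for TET3, with 61 and 124 bp to CTCF for TET1 and TET3 and 48, 40 and 92 bp to MBD3. With the 1233 strongest peaks of TET1 and TET3, both was 69.9 and 67.3%, CTCF only 2.92 and 0.568%, MBD3 only 20.4 and 27.3%, neither 6.73 and 4.87%, with 64 and 141 bp to CTCF and 44 and 60 bp to MBD3. With CTCF and MBD3 −log10 q of 10 or more, which leaves 80698 and 26242 peaks, both was 43.5, 47.2 and 36.2%, CTCF only 15.2, 11.7 and 10.9%, MBD3 only 19.8, 18.3 and 24.7%, neither 21.6, 22.8 and 28.2%, with 87.5 bp (TET1) and 162 bp (TET3) to MBD3. With the 50000 strongest CTCF and MBD3 peaks, both was 34.9, 37.0 and 26.6%, MBD3 only 43.9, 44.0 and 49.9%, neither 14.0, 15.2 and 18.9%, with 71 and 69 bp to CTCF for TET1 and TET2 and 136 bp to MBD3 for TET3. Without high local background, TET2 neither was 8.58%. With rows within 500 bp merged, medians were 93 bp (TET1) and 158 bp (TET3) to CTCF and 96, 79 and 157 bp to MBD3. With all deposited summits, an alternative chosen after seeing the data, medians were 63, 58 and 86 bp to CTCF and 53, 40 and 64 bp to MBD3. Chromosomes 1 to 22 and X alone, and leaving out 26 to 28 Mb of chromosome 6, the other added alternative, moved no class share or median distance beyond its interval. The ratio of TET shares at MBD3 peaks with over without CTCF ran from 1.52 to 5.14, 1.72 to 5.61 and 1.14 to 3.49. The shares follow the admitted list sizes by construction; what else sets them was not tested. Shallow TET pileups limit detection, so a CTCF or MBD3 peak without a TET peak is not shown to lack the protein.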

Other observations

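The richest megabases of every TET list were a pair of neighbours on chromosome 6, from 26000001 to 28000000 on hg19. They held 61 and 61 TET1 peaks, 24 and 37 TET2 peaks and 57 and 71 TET3 peaks, against medians of 2, 1 and 4 peaks in the megabases that held any. None of these peaks lay in high local background. The second of the pair held 22 TET2 peaks at MBD3 only and 7 at both, and the first held 15 and 6. For TET1 the second held 32 at MBD3 only and 21 at both. The pair held 60 and 67 CTCF peaks and 86 and 103 MBD3 peaks. These megabases were chosen for their counts, so their rank is a description. Median TET fold there was 5.58 and 7.21 for TET1, against 4.04 over the whole TET1 list.

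Where TET lists shared a peak, the distance between their summits was measured as well. The median distance was 22 bp between TET1 and TET2 at 854 TET1 peaks, 45 bp between TET1 and TET3 at 3526 TET1 peaks and 25 bp between TET2 and TET3 at 970 TET2 peaks. The TET1 to TET2 distance was 26 bp at 601 peaks with both, 69.5 bp at 10 CTCF only peaks, 17 bp at 183 MBD3 only peaks and 14.5 bp at 60 neither peaks. At CTCF only peaks the TET1 to TET3 distance was 51 bp and the TET2 to TET3 distance 44 bp.

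Placement at the edge of an overlap touched few peaks. For CTCF, 86 TET1 peaks overlapped by up to 50 bp and 62 missed by less than 50 bp, with median TET1 folds of 3.77 and 3.91. The counts were 23 and 19 for TET2 and 311 and 261 for TET3. For MBD3 they were 63 and 45, 8 and 7, and 183 and 141.

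TET fold and partner fold were little related across peaks with both. Spearman's rho with CTCF fold was −0.02 over 3626 TET1 peaks, −0.07 over 778 TET2 peaks and −0.10 over 7553 TET3 peaks, and with MBD3 fold 0.09, 0.20 and 0.16. Peaks of a list share libraries and depth, so these values describe the lists.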
